A study of Sus scrofa with 15 samples.

Results

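The 8 genes described here are common reference genes of quantitative PCR: ACTB, HPRT1, B2M, TBP, PPIA, EEF1A1, GUSB and TFRC. They were found by their gene symbol alone, without any measured value, and made up 9 of the 43294 features of the table (28224 known genes and 15070 assembled transcripts), because B2M was listed under 2 gene IDs. The 2 B2M entries are called B2M-a (gene ID 110255236) and B2M-b (gene ID 397033). The data are pig RNA-seq libraries in 5 groups of 3. PFF were primary porcine fetal fibroblasts of passages 2 to 5, the cell type that gave the donor nuclei. SCNT4c and SCNT8c were untreated embryos made by somatic cell nuclear transfer (SCNT), collected at the 4-cell and the 8-cell stage. SCNT4c-KG were 4-cell SCNT embryos injected with KDM4A mRNA (1000 ng per microlitre, 5 h after activation) and kept in 0.1 µM GSK126 for 48 h. KDM4A removes methyl groups from H3K9 and GSK126 inhibits EZH2, the writer of H3K27me3. SCNT4c-TDG were 4-cell SCNT embryos from transfected fibroblasts that carried a doxycycline-inducible TDG vector, with 500 ng per ml doxycycline between 40 and 72 h. All SCNT embryos thus carried a fibroblast nucleus, and each embryo library was made from a pool of 30 embryos. No library of the TDG donor line without doxycycline was analysed here, so the line and the induction cannot be told apart.

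In quantitative PCR, the level of a gene is divided by that of a reference gene to correct for differences in the amount of RNA. The division assumes that the reference gene itself is the same in all samples. Reference genes are taken from basic cell functions, such as the cytoskeleton, nucleotide salvage, protein folding and translation, which all cells need. Early embryos live at first on RNA stored in the egg, degrade it and then switch on their own genome, so the make-up of their RNA shifts between stages.

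The 250 bases before the annotated start are shown for PPIA, HPRT1 and B2M-a, since the start region is where general and tissue-regulated promoters can be compared. Capitals mark matches, on either strand, to the TATA box (TATAAA), the CCAAT box (CCAAT, on the other strand ATTGG) and the GC box (GGGCGG, on the other strand CCGCCC). The sequences are from the RefSeq genome of Sscrofa11.1, the build of the files, and run 5′ to 3′ on the strand of the gene. The PPIA sequence is chr18:50566858-50567107 (minus strand), the HPRT1 sequence chrX:110320894-110321143 (plus strand) and the B2M-a sequence chr1:126844044-126844293 (minus strand).
PPIA: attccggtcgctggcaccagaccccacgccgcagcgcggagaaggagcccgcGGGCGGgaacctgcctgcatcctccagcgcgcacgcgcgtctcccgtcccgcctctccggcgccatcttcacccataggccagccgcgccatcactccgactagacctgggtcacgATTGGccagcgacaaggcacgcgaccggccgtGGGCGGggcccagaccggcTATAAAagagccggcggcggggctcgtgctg
HPRT1: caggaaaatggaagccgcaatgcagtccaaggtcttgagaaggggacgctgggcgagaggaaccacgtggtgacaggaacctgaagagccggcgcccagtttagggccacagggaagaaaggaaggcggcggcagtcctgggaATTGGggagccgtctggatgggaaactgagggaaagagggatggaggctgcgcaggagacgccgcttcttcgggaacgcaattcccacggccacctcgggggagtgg
B2M-a: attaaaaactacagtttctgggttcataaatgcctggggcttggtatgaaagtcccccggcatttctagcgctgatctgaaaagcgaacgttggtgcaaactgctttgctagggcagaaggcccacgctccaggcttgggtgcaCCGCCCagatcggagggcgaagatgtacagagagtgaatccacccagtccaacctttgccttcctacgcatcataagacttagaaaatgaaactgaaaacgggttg
The PPIA sequence held a TATA box at -31 relative to the start (10.4% of the same windows of 20664 protein-coding genes) together with CCAAT and GC boxes (32.0% and 44.4% of all windows). HPRT1 held 1 of these motifs, a CCAAT box, and B2M-a held 1, a GC box. A match describes the letters only, and binding was not measured here.

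The recovered reads per library ranged from 22224949 to 22868038 in PFF, 20460653 to 22530486 in SCNT4c, 12354649 to 15390472 in SCNT4c-KG, 17757929 to 19564459 in SCNT4c-TDG and 18083559 to 19549670 in SCNT8c, so that 1 read was worth between 0.765 and 1.63 units of normalized value. Values below are these normalized values, which are not divided by gene length, so levels are compared between groups and not between genes. Titles and descriptions disagree on the numbers of the SCNT4c samples, so their 3 libraries are called a, b and c. The induced gene TDG had a mean of 55575 ± 5177 (SD, n = 3) in SCNT4c-TDG and of 1713 ± 802 in SCNT4c, and KDM4A had a mean of 1448 ± 24.9 in SCNT4c-KG, 775 ± 194 in SCNT4c-TDG, which received no KDM4A mRNA, and 194 ± 103 in SCNT4c. All 8 fibroblast markers were higher in PFF than in SCNT4c, and the 4 oocyte markers that could be tested were lower, beside 38.5% and 39.7% of all features. A test needed a mean of at least 10. PDGFRB and LUM reached it through PFF, and ZP2, ZP3 and OOEP, which were at 0 in PFF, through SCNT4c. The direction of these markers was therefore set by the filter. The summed value of the fibroblast markers ranged from 3691 to 4857 in SCNT4c, 2354 to 3483 in SCNT4c-KG, 1417 to 1818 in SCNT4c-TDG and 1882 to 2220 in SCNT8c. Its members did not move together: of 6 tested in SCNT4c-KG against SCNT4c, 2 were higher, THY1 (700 against 106, adjusted p = 0.00038) and VIM (1380 against 482, adjusted p = 0.0060), and 3 lower, among them COL1A2 (472 against 2535, adjusted p = 1.7e-05). In that comparison 17.6% of all features were higher and 19.6% lower. The summed value of 8 oocyte markers ranged from 3392 to 5105, 3742 to 4642, 2615 to 2910 and 906 to 2421 in the same order of groups. ZP2 made up most of this sum in SCNT4c (3199 in SCNT4c and 1998 in SCNT4c-KG, adjusted p = 0.16), and of 5 tested members in SCNT4c-KG 2 were higher than in SCNT4c and 0 lower, beside 17.6% and 19.6% of all features. ZP3 was one of them (667 against 28.1, adjusted p = 0.00016), and KHDC3L (85.2 against 8.52) passed the filter through SCNT4c-KG. The summed value of 7 listed cumulus and granulosa markers ranged from 528 to 605 in PFF, 1372 to 1781 in SCNT4c, 768 to 876 in SCNT4c-KG, 457 to 582 in SCNT4c-TDG and 1329 to 1898 in SCNT8c. INHBA made up most of it, with means of 1412 in SCNT4c and 673 in SCNT4c-KG. The part of these markers in the differences between embryo groups was not tested. The methods give TRIzol for PFF and a PicoPure kit for embryos, so cell type and RNA extraction cannot be told apart.

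ACTB, the gene of beta-actin in the cytoskeleton, had the largest SD of group means among the 4 embryo groups of the entries that could be tested (2.05 on the log2 scale). Its values were 198154, 197833 and 191859 in PFF, 517, 309 and 198 in SCNT4c, 6132, 6350 and 3873 in SCNT4c-KG, 3580, 3747 and 3364 in SCNT4c-TDG, and 504, 648 and 306 in SCNT8c. The treated 4-cell embryos lay above all untreated embryos of both stages, and PFF lay far above all embryos. Compared with SCNT4c, ACTB rose by 4.07 on the log2 scale in SCNT4c-KG (SE 0.38, 95% interval 3.26 to 4.87, adjusted p = 1.5e-06), a 16.8-fold difference. In SCNT4c-TDG it rose by 3.49 (SE 0.38, 95% interval 2.68 to 4.29, adjusted p = 8.9e-06), which is 11.2-fold. These comparisons share the SCNT4c libraries. In bulk RNA, fewer cells of a type and less RNA per cell cannot be told apart. The libraries of SCNT4c-KG all lay above those of SCNT4c-TDG, but the difference did not pass the test (TDG minus KG -0.58 on the log2 scale, 95% interval -1.39 to 0.23, adjusted p = 0.33). SCNT8c and SCNT4c overlapped (log2 difference 0.55, 95% interval -0.26 to 1.36, adjusted p = 0.35). Against SCNT8c, ACTB was 11.4-fold higher in SCNT4c-KG (log2 3.52, adjusted p = 9.6e-06) and 7.65-fold higher in SCNT4c-TDG (log2 2.94, adjusted p = 6.1e-05). PFF exceeded SCNT4c by 9.27 on the log2 scale (95% interval 8.46 to 10.08, adjusted p = 2.1e-06) and SCNT8c by 8.72 (95% interval 8.04 to 9.40, adjusted p = 8.7e-06). The order was therefore PFF, then the treated 4-cell groups, then the untreated 8-cell and 4-cell groups, which did not differ beyond their spread.

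**Figure D1:**
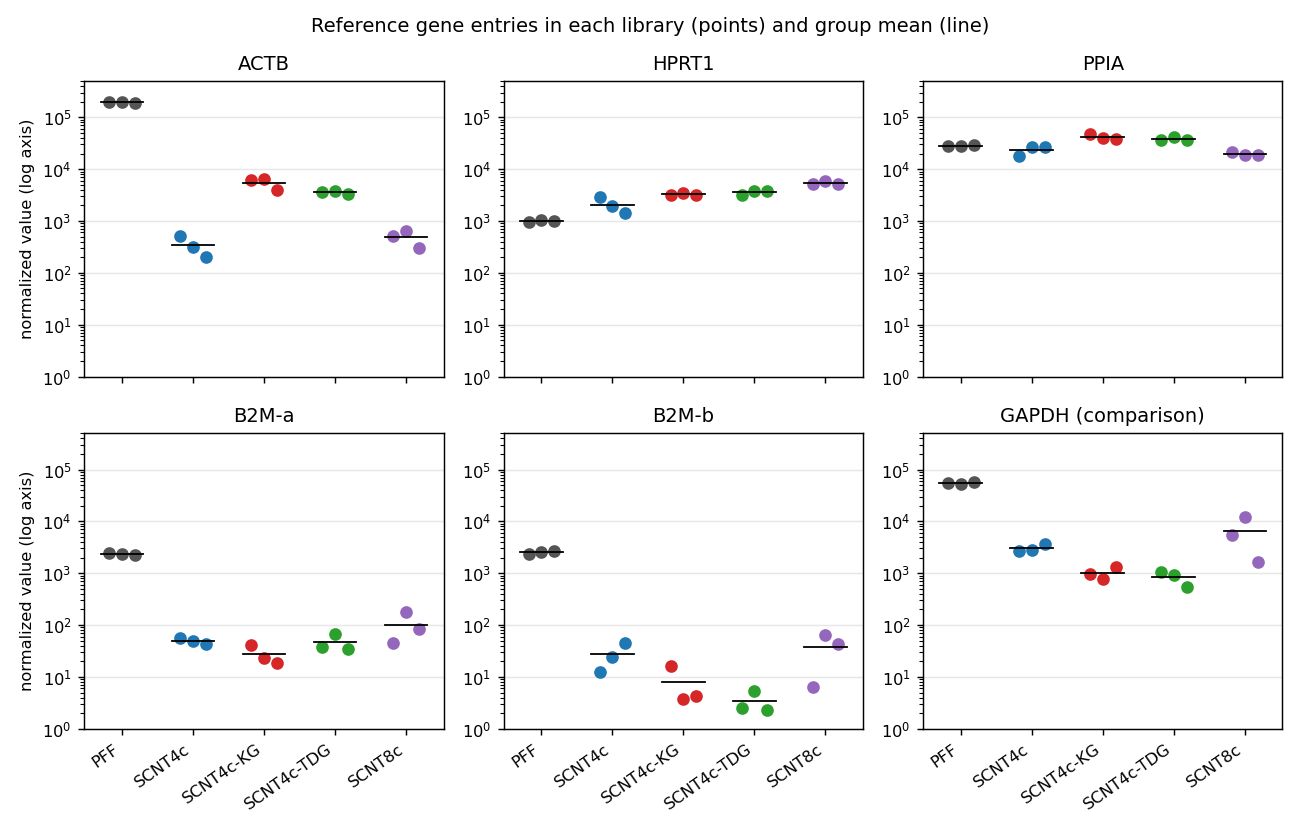
Normalized value (log axis) of the 5 tested reference gene entries and of GAPDH in each library (points) and the mean of each group of 3 (lines). PPIA stays within 2.58-fold over all libraries, HPRT1 runs from 966 in PFF to 5946 in SCNT8c, ACTB falls from 195948 in PFF to 342 in SCNT4c and stands at 5452 in SCNT4c-KG, and both B2M entries are far higher in PFF than in any embryo group.

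The number of changed entries can be read against all features. In SCNT4c-KG against SCNT4c, 1 of the 5 tested entries changed (ACTB), beside 37.2% of the 18942 features tested, 17.6% of those tested being higher and 19.6% lower. In SCNT4c-TDG against SCNT4c 1 of 5 changed (ACTB; 33.3% of all features, 15.7% higher and 17.6% lower), in SCNT8c against SCNT4c 1 of 5 (HPRT1; 5.79%), in SCNT4c-TDG against SCNT4c-KG 0 of 5 (16.2%), in SCNT4c-KG against SCNT8c 2 of 5 (ACTB and PPIA; 28.2%), and in SCNT4c-TDG against SCNT8c 1 of 5 (ACTB; 24.7%). PFF differed from SCNT4c in 3 of 5 entries, all higher (78.2% of all features, 38.5% higher and 39.7% lower) and from SCNT8c in 4 of 5 (70.5%). With the adjusted p alone, without the limit of 2-fold, 3 of 5 entries passed in SCNT4c-KG and 3 in SCNT4c-TDG against SCNT4c (38.2% and 34.1% of all features), 1 in SCNT8c against SCNT4c (5.88%), 0 in SCNT4c-TDG against SCNT4c-KG (16.6%), 2 in SCNT4c-KG and 2 in SCNT4c-TDG against SCNT8c (29% and 25.3%), and 4 and 5 in PFF against SCNT4c and SCNT8c (81.8% and 71.8%). The 3 libraries of both groups did not overlap for 4 of 5 entries in SCNT4c-KG against SCNT4c (53.9% of all features), 4 in SCNT4c-TDG against SCNT4c (58.4%), 1 in SCNT8c against SCNT4c (23.5%), 1 in SCNT4c-TDG against SCNT4c-KG (44.4%), 4 in SCNT4c-KG against SCNT8c (36.7%), 4 in SCNT4c-TDG against SCNT8c (40.6%), and 5 in PFF against SCNT4c (84.5%) and against SCNT8c (77.3%). No entry had its 95% interval within 2-fold in either treated group against SCNT4c (2.28% and 2.53% of all features) or against SCNT8c (2.9% and 2.56%).

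The median log2 difference over all tested features was -0.30 for SCNT4c-KG, -0.26 for SCNT4c-TDG and -0.31 for SCNT8c, each against SCNT4c, and -0.07 for PFF against SCNT4c, while the 5 tested entries had medians of 0.71, 0.69, 0.55 and 5.56. The other 4 entries did not reach a mean of 10 in any comparison and were not tested. With limma, no entry changed between SCNT4c-TDG and SCNT4c-KG, and edgeR and DESeq2 also gave 0; all 5 had an unadjusted p above 0.05. The scaling moved the balance of calls over all features: the higher share of the changed features was 49.2% in PFF against SCNT4c, and 41.2%, 39.6% and 39.4% with the same total, edgeR and DESeq2. It was 45.3% in SCNT8c against SCNT4c, and 57.0%, 79.5% and 71.8% with quantile normalization, edgeR and DESeq2. For SCNT4c-TDG against SCNT4c-KG it was 43.6%, and 64.2% with the same total, and for PFF against SCNT8c it was 52.2%, and 42.7%, 41.4% and 41.5% with the same total, edgeR and DESeq2.

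**Figure D2:**
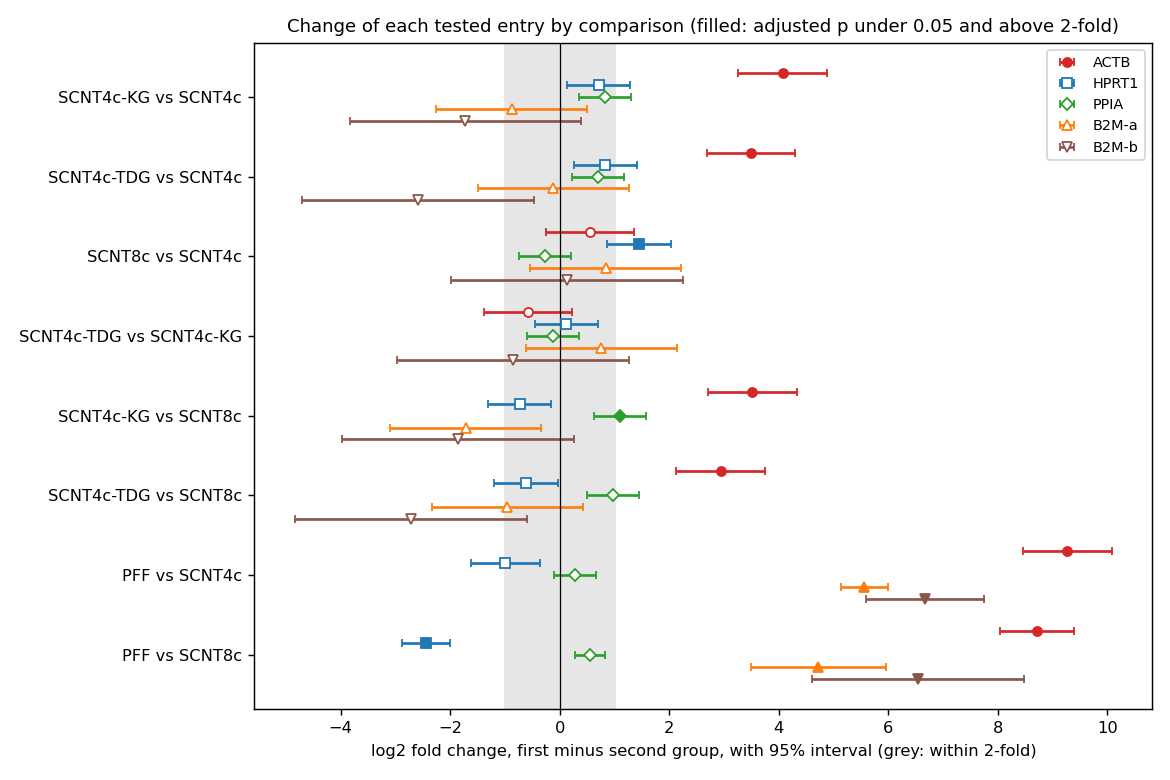
Log2 fold change (first minus second group) with its 95% interval for the 5 tested entries in 8 comparisons; filled symbols passed an adjusted p of 0.05 and 2-fold, and the grey band marks differences within 2-fold. ACTB lies at 4.07 and 3.49 in the treated groups against SCNT4c, PPIA stays at or near the band in every comparison, and B2M-b has the widest intervals among the embryo groups.

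The list of genes that act with actin held 12 genes, of which 10 were tested in the embryos: 3 were higher and 0 lower in SCNT4c-KG, and 2 were higher and 2 lower in SCNT4c-TDG, each against SCNT4c. In the same comparisons, 17.6% of all features were higher and 19.6% lower in SCNT4c-KG, and 15.7% higher and 17.6% lower in SCNT4c-TDG. PFN1 is counted as higher in SCNT4c-KG but passed the filter on low values, a mean of at least 10, through that group. Its means were 3.49 in SCNT4c, 50.7 in SCNT4c-KG, 6.22 in SCNT4c-TDG and 0.352 in SCNT8c, so no test is given for it. TMSB10, which binds actin monomers, had the largest rise (34150 against 2253 in SCNT4c-KG, log2 3.90, SE 0.31, adjusted p = 2.4e-07), and CFL1, the actin-severing cofilin, the largest fall (12.1 against 52.9 in SCNT4c-TDG, log2 difference -2.09, SE 0.74, adjusted p = 0.041). The gene of gamma-actin, ACTG1, had means of 282507 ± 12071 in PFF, 6235 ± 1938 in SCNT4c, 8338 ± 2461 in SCNT4c-KG, 2623 ± 452 in SCNT4c-TDG and 4658 ± 2292 in SCNT8c. It fell in SCNT4c-TDG (log2 difference -1.22, SE 0.35, adjusted p = 0.015) and did not pass the test in SCNT4c-KG (log2 difference 0.43, SE 0.35, adjusted p = 0.35). In PFF, 9 of 9 tested actin genes were higher than in SCNT4c, as were 38.5% of all features.

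PPIA, the peptidyl-prolyl isomerase cyclophilin A that helps proteins fold, varied least. Its values were 28422, 28493 and 28583 in PFF, 18310, 26384 and 27030 in SCNT4c, 47326, 39729 and 38064 in SCNT4c-KG, 36720, 41750 and 36016 in SCNT4c-TDG, and 21315, 18624 and 18459 in SCNT8c. Both treated groups lay above every untreated library, and the highest of the 15 libraries was 2.58 times the lowest. PPIA was 1.76-fold higher in SCNT4c-KG than in SCNT4c (log2 0.82, SE 0.22, 95% interval 0.34 to 1.29, adjusted p = 0.0099) and 1.62-fold higher in SCNT4c-TDG (log2 0.69, 95% interval 0.22 to 1.17, adjusted p = 0.026, with a range of 0.00061 to 0.11 over the alternatives), below the limit of 2-fold in both, although quantile normalization gave 1.22 in SCNT4c-TDG. Relative to the median of all features, PPIA in SCNT4c-KG was 1.12 in the main setting, past 2-fold on that scale. It was 0.93, 1.12, 1.03 and 1.03 with quantile normalization, the same total, edgeR and DESeq2. SCNT4c-TDG stood at 0.95 in the main setting and at 1.30, 0.95, 1.02 and 1.02 in the same 4. SCNT4c-KG against SCNT8c was the comparison in which PPIA passed the limit of 2-fold in the main fit (log2 1.10, 95% interval 0.62 to 1.57, adjusted p = 0.0019), although quantile normalization and the same total gave 0.90 and 0.95 (1.06 and 1.07 relative to the median of all features, from 1.07). SCNT4c-TDG against SCNT8c stood at 0.97 (95% interval 0.50 to 1.45, adjusted p = 0.0049), just under 2-fold, and passed it with quantile normalization (1.39), the same total (1.19), edgeR (1.08), DESeq2 (1.02), without SCNT4c-TDG replicate 3 (1.01) and without SCNT8c replicate 1 (1.04). Relative to the median of all features it was 0.88 in the main setting, 0.89 with the same total, and above 1 with the other 3. The interval of SCNT8c minus SCNT4c, from -0.75 to 0.20, lay within 2-fold, as 4.13% of all features did. The difference between SCNT4c-TDG and SCNT4c-KG also lay within 2-fold (log2 -0.12, 95% interval -0.60 to 0.35; 3.3% of all features), and it turned to 0.48 with quantile normalization, 0.24 with the same total, 0.036 with edgeR and 0.010 with DESeq2, or to 0.44, -0.094, 0.061 and 0.060 relative to the median of all features, from -0.10. PFF exceeded SCNT4c by 0.28 (95% interval -0.10 to 0.65; 4.08% of all features within 2-fold), and this direction turned to -0.034, -0.35, -0.50 and -0.54 with the same 4 settings. Relative to the median of all features it was 0.34 in the main setting and -0.064, 0.57, 0.46 and 0.47 in these 4. PFF exceeded SCNT8c by 0.55 (95% interval 0.28 to 0.82; 1.62% within 2-fold), which became -0.13 with the same total, -0.032 with edgeR and -0.079 with DESeq2. The median of all features moved from 0.15 to -0.74, -0.69 and -0.73 in these 3, and relative to it PPIA kept its direction, at 0.41 in the main setting and 0.61, 0.66 and 0.65.

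Of 11 other cyclophilin genes, 10 were tested in the embryos: 3 were higher and 2 lower in SCNT4c-KG, and 2 were higher and 0 lower in SCNT4c-TDG, each against SCNT4c, beside 37.2% and 33.3% of all features that changed in either direction. PPIL3, a spliceosome-associated member, had the largest rise (3577 against 114 in SCNT4c-KG, log2 4.97, SE 0.31, adjusted p = 2.8e-08), and PPIC the largest fall (5.5 against 136 in SCNT4c-KG, log2 difference -5.66, adjusted p = 0.00052). Between PFF and SCNT4c, 5 of 11 were higher in PFF and 3 lower, beside 38.5% and 39.7% of all features. PPIL2 (45.5 in PFF and 2.13 in SCNT4c) reached the minimum mean of 10 through PFF, so its direction was set by the filter. A transcribed copy can share reads with PPIA: the genome held 1 other locus that matched at least 50% of its longest transcript, with 96.9% identity, and 1 read can be assigned to either only where they differ.

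HPRT1 lies on the X chromosome and encodes hypoxanthine phosphoribosyltransferase of the purine salvage pathway. Its values were 966, 1047 and 992 in PFF, 2878, 1904 and 1449 in SCNT4c, 3130, 3506 and 3182 in SCNT4c-KG, 3147, 3748 and 3770 in SCNT4c-TDG, and 5174, 5946 and 5236 in SCNT8c. PFF was lowest and SCNT8c highest, and neither overlapped any other group. HPRT1 rose 2.73-fold from SCNT4c to SCNT8c (log2 1.45, SE 0.27, 95% interval 0.87 to 2.02, adjusted p = 0.019). This call was lost when the 2 groups were fitted alone (adjusted p = 0.20) and when SCNT4c library b (0.070), SCNT4c library c (0.053), SCNT8c replicate 1 (0.067) or SCNT8c replicate 2 (0.059) was left out, with the difference staying between 1.22 and 1.71. SCNT4c-KG was 1.64-fold above SCNT4c (log2 0.71, 95% interval 0.13 to 1.29, adjusted p = 0.0499, with a range of 0.012 to 0.20 over the alternatives) and SCNT4c-TDG 1.78-fold (log2 0.83, 95% interval 0.25 to 1.41, adjusted p = 0.028), both below 2-fold. With the same total, edgeR and DESeq2, SCNT4c-TDG passed 2-fold, at 1.10, 1.07 and 1.09, as it did without SCNT4c library a (1.09). Relative to the median of all features it was 1.09 in the main setting and 1.09, 1.16 and 1.15 in these 3. On that scale HPRT1 in SCNT4c-KG against SCNT4c was 1.02 in the main setting. It was 0.82, 1.01, 0.93 and 0.92 with quantile normalization, the same total, edgeR and DESeq2. SCNT4c-TDG and SCNT4c-KG differed by 0.12 (95% interval -0.46 to 0.69), within 2-fold. PFF was below SCNT8c (log2 difference -2.44, 95% interval -2.87 to -2.01, adjusted p = 7.4e-05) and below SCNT4c (log2 difference -0.99, 95% interval -1.62 to -0.36, adjusted p = 0.011), the latter just under 2-fold and past it with quantile normalization (-1.83), the same total (-1.62), edgeR (-1.78), DESeq2 (-1.83) and without PFF replicate 2 (-1.03), SCNT4c library b (-1.03) or SCNT4c library c (-1.22). Relative to the median of all features it was -0.93 in the main setting, -1.86 with quantile normalization and -0.70, -0.82 and -0.82 with the same total, edgeR and DESeq2, so that of these 4 only quantile normalization put it past 2-fold.

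The nucleotide salvage list held 10 genes, of which 8 were tested in the embryos. In SCNT4c-KG 2 were higher and 1 lower, and in SCNT4c-TDG 2 were higher and 2 lower, each against SCNT4c, beside 37.2% and 33.3% of all features that changed. ADK, adenosine kinase, is counted as higher but passed the filter on low values, a mean of at least 10, through the treated groups (means of 1.63 in SCNT4c, 74.8 in SCNT4c-KG, 369 in SCNT4c-TDG and 9.69 in SCNT8c), so no test is given for it. ADA, adenosine deaminase, had the largest fall (38.0 against 288 in SCNT4c-TDG, log2 difference -2.95, SE 0.63, adjusted p = 0.0022).

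B2M encodes beta-2-microglobulin, the light chain of MHC class I molecules. The annotation places B2M-a at chr1:126837721-126844043 and B2M-b at chr1:126865767-126878501, both on the minus strand, and lists B2M-b as partial. Their longest transcripts shared an aligned stretch of 387 bases without a mismatch, and reads from within it cannot be told apart between the copies. B2M-a had values of 2492, 2319 and 2211 in PFF, 55.2, 48.9 and 42.3 in SCNT4c, 40.8, 22.8 and 18.5 in SCNT4c-KG, 38.5, 66.7 and 34.4 in SCNT4c-TDG, and 44.8, 177 and 84.5 in SCNT8c. B2M-b had values of 2391, 2592 and 2707 in PFF, 12.6, 24.5 and 44.8 in SCNT4c, 16.3, 3.81 and 4.27 in SCNT4c-KG, 2.51, 5.37 and 2.30 in SCNT4c-TDG, and 6.53, 63.2 and 42.3 in SCNT8c. PFF stood apart from all embryo groups for both copies. PFF exceeded SCNT4c by 5.56 on the log2 scale for B2M-a (95% interval 5.13 to 5.99, adjusted p = 1.4e-06) and by 6.67 for B2M-b (95% interval 5.59 to 7.75, adjusted p = 2.3e-05), and exceeded SCNT8c by 4.72 and 6.54 (adjusted p = 0.00031 and 0.00052). The B2M-b difference from SCNT8c was 5.60 without SCNT8c replicate 1 and 7.15 without SCNT8c replicate 2. Among the embryos, none of the 6 comparisons of each copy passed the threshold in the main fit. B2M-b was nearest to it in SCNT4c-TDG, with log2 differences of -2.58 against SCNT4c (95% interval -4.70 to -0.47, adjusted p = 0.056) and -2.72 against SCNT8c (95% interval -4.83 to -0.60, adjusted p = 0.057). These became calls with quantile normalization (-3.40 and -3.81) and DESeq2 (-2.73 and -3.43), the first also with the 2 groups alone (adjusted p = 0.025), and the second with a pseudocount of 10 (-1.58) and without SCNT8c replicate 1 (-3.65). B2M-a in SCNT4c-KG against SCNT8c stood at -1.72 (95% interval -3.10 to -0.34, adjusted p = 0.058) and became a call in 6 alternatives, among them DESeq2 (-2.04, adjusted p = 0.0096) and without SCNT8c replicate 1 (-2.20, adjusted p = 0.029). At these low values changes above 2-fold can lie within the intervals. The direction of B2M-a in SCNT4c-TDG against SCNT4c (-0.12) was positive with 4 other scalings or tests, between 0.15 and 0.24. Relative to the median of all features, which was -0.26, it was 0.14 in the main setting and 0.27, 0.13, 0.31 and 0.30 with quantile normalization, the same total, edgeR and DESeq2, so its direction did not turn on that scale.

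Of 12 antigen presentation genes, 8 were tested in the embryos: 1 was higher and 2 lower in SCNT4c-KG, and 1 was higher and 0 lower in SCNT4c-TDG, each against SCNT4c, beside 37.2% and 33.3% of all features that changed. CALR, the chaperone calreticulin, had the largest rise (5783 against 1180 in SCNT4c-TDG, log2 2.38, SE 0.48, adjusted p = 0.0014), and ERAP1, a peptide-trimming aminopeptidase, the largest fall (102 against 379 in SCNT4c-KG, log2 difference -2.04, SE 0.49, adjusted p = 0.0048). In PFF, 10 of 11 tested genes of this list were higher than in SCNT4c, as were 38.5% of all features. Among these, SLA-2 (925 in PFF and 0 in SCNT4c) and PSMB8 (1065 and 6.57) reached the minimum mean of 10 through PFF. Their direction was therefore set by the filter.

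TBP, EEF1A1, GUSB and TFRC were at or near 0 in their own table entries. GUSB, the lysosomal enzyme beta-glucuronidase, and TFRC, the transferrin receptor that takes up iron, were listed at 0 in all 15 libraries, as were 14.4% of all known genes. TBP, the TATA-box-binding protein of the general transcription machinery, was listed at 0 in 6 libraries, and its highest value was 35.9, or 22 reads, in SCNT4c-KG replicate 1. EEF1A1, which brings aminoacyl-tRNA to the ribosome, was listed at 0 in 4 libraries, among them all of SCNT8c, and its highest value was 37.6, or 23 reads, in the same library. Over all 15 libraries the 2 entries held 99 and 57 reads. No stability can be read from such values.

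The table also places an assembled transcript without gene name at the locus of each of these 4 genes. For TFRC (chr13:133976765-133997554, plus strand) that transcript had values of 6387, 6251 and 8000 in PFF, 421, 971 and 2465 in SCNT4c, 890, 997 and 1949 in SCNT4c-KG, 2324, 2777 and 2585 in SCNT4c-TDG, and 3624, 4462 and 568 in SCNT8c. PFF stood clear of every embryo library, while SCNT4c and SCNT8c spread widely within themselves. Summed with the gene entry, TFRC was higher in PFF than in SCNT4c (log2 2.77, 95% interval 1.27 to 4.26, adjusted p = 0.0058), and none of the 6 embryo comparisons passed. A long non-coding RNA, LOC100512560, is annotated on the other strand within the span that the table gives for this locus, with means of 93.3, 13.8, 131, 210.4 and 27.9 in PFF, SCNT4c, SCNT4c-KG, SCNT4c-TDG and SCNT8c. Its annotated position, chr13:133969419-133970560, does not overlap that of TFRC, so only the wider span of the locus covers both. The strand setting of the counting is not given in the sources used here. Whether the assembled transcript holds reads of LOC100512560 was not tested.

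For GUSB (chr3:16672071-16686520, plus strand) the assembled transcript had values of 97.7, 109.5 and 75.1 in PFF and was at 0 in all SCNT4c and SCNT8c libraries, with 1.42 to 8.17 in SCNT4c-KG and 0 to 9.97 in SCNT4c-TDG. Set against 3 reads per library, the limit that a count of 0 allows, PFF was at least 37.8-fold higher than SCNT4c and at least 33.4-fold higher than SCNT8c. These limits cover counting error only. For TBP (chr1:5669-23675, minus strand, partial in the annotation) the transcript had means of 4.53 ± 1.93 in PFF, 42.6 ± 15.7 in SCNT4c, 10.5 ± 9.13 in SCNT4c-KG, 43.0 ± 15.6 in SCNT4c-TDG and 4.12 ± 2.84 in SCNT8c (SD, n = 3). The sum with the entry had means of 6.60 ± 2.12 in PFF and 43.8 ± 14.7 in SCNT4c, and since it reached the minimum mean through SCNT4c no test is given for this pair. The sum was higher in SCNT4c-TDG than in SCNT8c (log2 3.66, 95% interval 1.13 to 6.19, adjusted p = 0.034). A neighbouring gene, LOC100125545, is also annotated as a TATA-box-binding protein and had means of 175 ± 17.6 in PFF, 24.9 ± 22.6 in SCNT4c, 210.2 ± 78.1 in SCNT4c-KG, 286 ± 70.2 in SCNT4c-TDG and 17.0 ± 13.3 in SCNT8c. For EEF1A1 (chr1:92421235-92425053, plus strand) the transcript stayed between 0 and 28.0, and the sum had means of 25.8 ± 5.44 in PFF and 1.66 ± 1.45 in SCNT4c. It reached the minimum mean of 10 through PFF, so no test is given for this pair. The EEF1A1 transcript had matches of at least 90% identity at 9 other loci, 1 of them over at least 50% of its length with 91.2% identity. The part of these copies in the low values was not tested. Among all known genes, 13.5% of the 16056 that share a locus with an assembled transcript were listed at 0 throughout, and 15.6% of the 12168 that do not. How reads were assigned at the loci of TBP, EEF1A1, GUSB and TFRC was not tested.

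**Figure D3:**
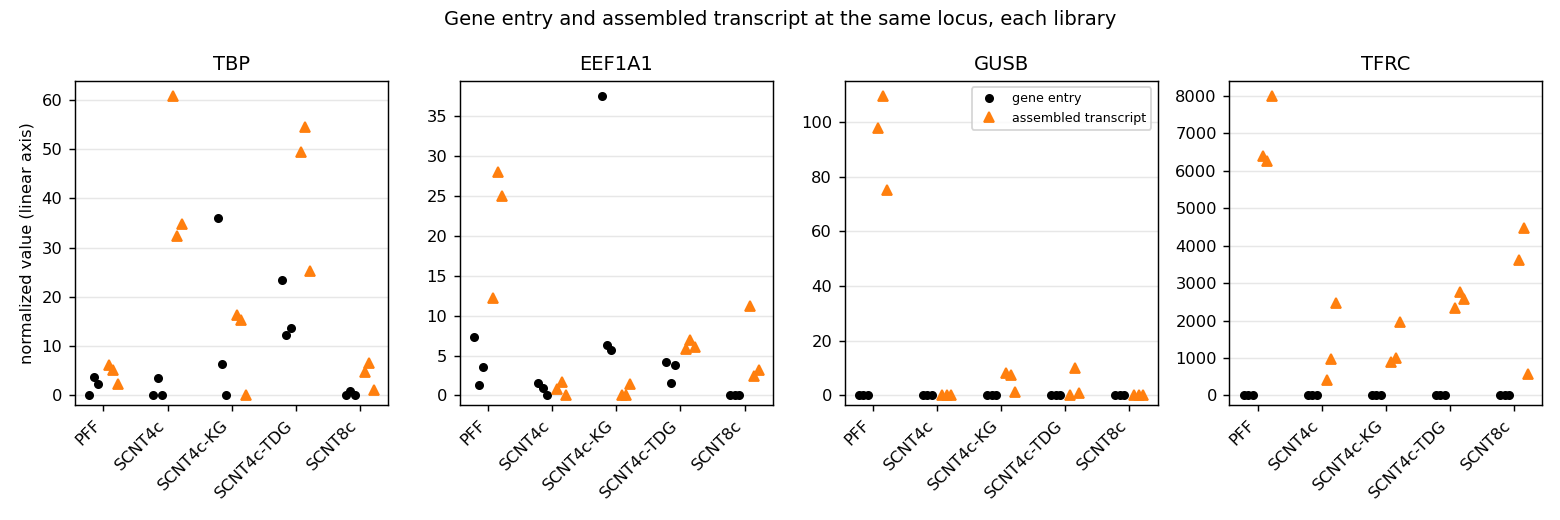
Normalized value (linear axis, a separate scale in each panel) of the gene entry (black circles) and of the assembled transcript at the same locus (orange triangles) for TBP, EEF1A1, GUSB and TFRC in each library. The TFRC transcript reaches 8000 in PFF while the TFRC entry is at 0 in every library, and the GUSB transcript is high in PFF alone.

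The lists fixed for these 4 genes were tested in the same way, and their counts stand beside 37.2% of all features that changed in SCNT4c-KG (17.6% higher, 19.6% lower) and 33.3% in SCNT4c-TDG (15.7% higher, 17.6% lower). Of 14 TFIID genes, 9 were tested in the embryos, with 3 higher and 1 lower in SCNT4c-KG and 5 higher and 1 lower in SCNT4c-TDG than in SCNT4c. TAF10 had the largest rise (555 against 42.5 in SCNT4c-KG, log2 3.78, SE 0.48, adjusted p = 2.9e-05) and TAF12 the largest fall (1542 against 7319 in SCNT4c-TDG, log2 difference -2.25, SE 0.25, adjusted p = 1.1e-05), both being subunits of the complex that TBP joins. Of 9 elongation factor genes, 7 were tested, with 5 higher and 0 lower in SCNT4c-KG and 2 higher and 2 lower in SCNT4c-TDG. EEF2, the translocase of the ribosome, is counted as higher in both but passed the filter on low values through SCNT4c-KG (means of 0.859 in SCNT4c, 72.4 in SCNT4c-KG, 19.3 in SCNT4c-TDG and 2.32 in SCNT8c), so no test is given for it. EEF1D also passed this filter through SCNT4c-KG, and no test is given for it. Its means were 4.42 in SCNT4c, 33.9 in SCNT4c-KG, 2.37 in SCNT4c-TDG and 0.311 in SCNT8c. EEF1G fell from 1960 to 414 in SCNT4c-TDG (adjusted p = 0.022). EEF1A2, the close paralog of EEF1A1, had a mean of 17281 ± 2079 in PFF and a highest value of 5.60 in the embryos. Of 13 lysosomal hydrolase genes, 8 were tested, with 1 higher and 2 lower in SCNT4c-KG and 0 higher and 2 lower in SCNT4c-TDG. MAN2B1, an alpha-mannosidase, rose in SCNT4c-KG (562 against 149, adjusted p = 0.0049), and GAA, the acid glucosidase of glycogen breakdown, fell in SCNT4c-TDG (74.3 against 1539, adjusted p = 0.00021). Of 12 iron genes, 7 were tested, with 1 higher and 2 lower in SCNT4c-KG and 1 higher and 1 lower in SCNT4c-TDG. STEAP3, a ferrireductase, is the 1 gene counted as higher in both and likewise passed the filter through SCNT4c-KG (means of 0.789 in SCNT4c, 49.6 in SCNT4c-KG, 10.5 in SCNT4c-TDG and 0 in SCNT8c), so no test is given for it. SLC40A1, the iron exporter ferroportin, fell from 177 to 23.5 in SCNT4c-KG (adjusted p = 0.011).

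Over the 12 embryo libraries, PPIA had the smallest SD of log2(value + 1) of the tested entries, at 0.51, and 2.64% of the 18942 features had a lower one. HPRT1 followed at 0.58 (4.83% lower), then B2M-a at 0.83 (16.0%), B2M-b at 1.52 (56.1%) and ACTB at 1.90 (73.9%), beside a median of 1.40 over all features. For GAPDH, the reference gene that the study used in its quantitative PCR, the SD was 1.31 (44.7%). Most of the spread lay between groups for ACTB, with an SD of group means of 2.05 against 0.49 within groups, and for PPIA, with 0.53 against 0.20. For B2M-a the SD was 0.70 between and 0.63 within groups. Over the 4 embryo groups, the moderated F test was passed by ACTB (adjusted p = 1.2e-06), PPIA (0.0020) and HPRT1 (0.0037), while B2M-b (0.068) and B2M-a (0.16) did not pass it, beside 52% of all features that did. The entries with a narrow spread thus differed between groups in the test, and the noisier B2M entries did not pass it in the main fit. Over the alternatives, which include leaving out 1 library, 3 to 4 entries passed the F test. Adding PFF raised the SD to 3.44 for ACTB and to 3.47 for B2M-b, and left PPIA at 0.45, a value that 0.496% of features undercut.

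**Figure D4:**
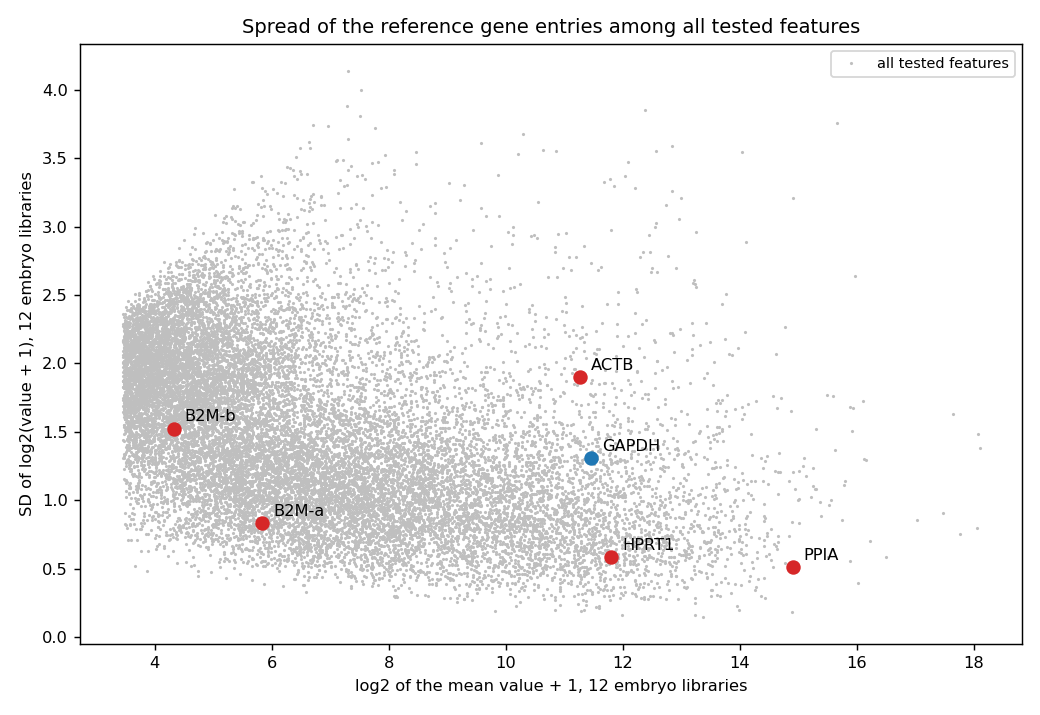
SD of log2(value + 1) over the 12 embryo libraries (vertical axis) against the log2 mean (horizontal axis) for 18942 features (grey), with the 5 tested reference gene entries in red and GAPDH in blue. PPIA (0.51) and HPRT1 (0.58) lie near the lower edge of the cloud while ACTB (1.90) lies above the median of all features (1.40).

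The geNorm M value of an entry is the mean SD of its log2 ratios to the other entries, and it is smaller for an entry that moves with the others. Over the 12 embryo libraries M was 1.30 for HPRT1, 1.36 for PPIA, 1.39 for B2M-a, 1.97 for B2M-b and 2.24 for ACTB. Over all 15 libraries it was 2.32 for B2M-a, 2.63 for PPIA, 2.99 for B2M-b and 3.11 for both HPRT1 and ACTB. The SD of the log2 ratio of HPRT1 to PPIA was 0.44 over the 9 four-cell libraries and 0.86 over the 12 embryo libraries. The ratio itself was 0.0943 ± 0.0552 in SCNT4c, 0.0793 ± 0.0117 in SCNT4c-KG and 0.0934 ± 0.00999 in SCNT4c-TDG, against 0.282 ± 0.0383 in SCNT8c and 0.0351 ± 0.0014 in PFF (SD, n = 3). The ratio of ACTB to PPIA ran from 0.0158 ± 0.0110 in SCNT4c to 0.130 ± 0.0291 in SCNT4c-KG and 6.88 ± 0.142 in PFF. The ratio of ACTB to GAPDH was 0.119 ± 0.0687 in SCNT4c and 5.83 ± 2.62 in SCNT4c-KG, with ACTB higher and GAPDH lower there. GAPDH had means of 55260 ± 2482 in PFF, 6417 ± 5299 in SCNT8c (libraries from 1649 to 12122), 3041 ± 542 in SCNT4c, 1014 ± 261 in SCNT4c-KG and 842 ± 259 in SCNT4c-TDG (adjusted p = 0.027 and 0.013 for the treated groups against SCNT4c).

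The effect of the reference gene was followed on TDG, chosen after its values were known, and is given as a description. In the deposited values, TDG was 35.02-fold higher in SCNT4c-TDG than in SCNT4c, as a ratio of geometric means. Divided by GAPDH this became 129.8-fold, by PPIA 21.7-fold, by HPRT1 19.7-fold and by ACTB 3.12-fold. In SCNT4c-KG, TDG was 2.75-fold higher than in SCNT4c in the deposited values, 8.35-fold higher relative to GAPDH, 1.56-fold higher relative to PPIA and 1.68-fold higher relative to HPRT1, where the groups overlapped. Relative to ACTB it was 6.11-fold lower in SCNT4c-KG, with no overlap between the 3 libraries of either group. The geometric mean of HPRT1 and PPIA gave 1.62-fold higher, and that of ACTB, HPRT1 and PPIA 1.33-fold lower, and in both the groups overlapped. In SCNT8c the TDG level was 1.88-fold lower than in SCNT4c relative to HPRT1 and 1.76-fold higher relative to PPIA, without overlap in either case. It was 1.45-fold higher in the deposited values, 1.01-fold lower relative to ACTB and 1.10-fold lower relative to GAPDH. The geometric mean of HPRT1 and PPIA gave 1.04-fold lower and that of ACTB, HPRT1 and PPIA 1.03-fold lower, and in these 5 cases the groups overlapped. With 3 against 3 libraries an exact permutation test cannot go below 0.1, and none was used here. Reads of the vector and of the TDG gene of the pig cannot be told apart in these values.

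**Figure D5:**
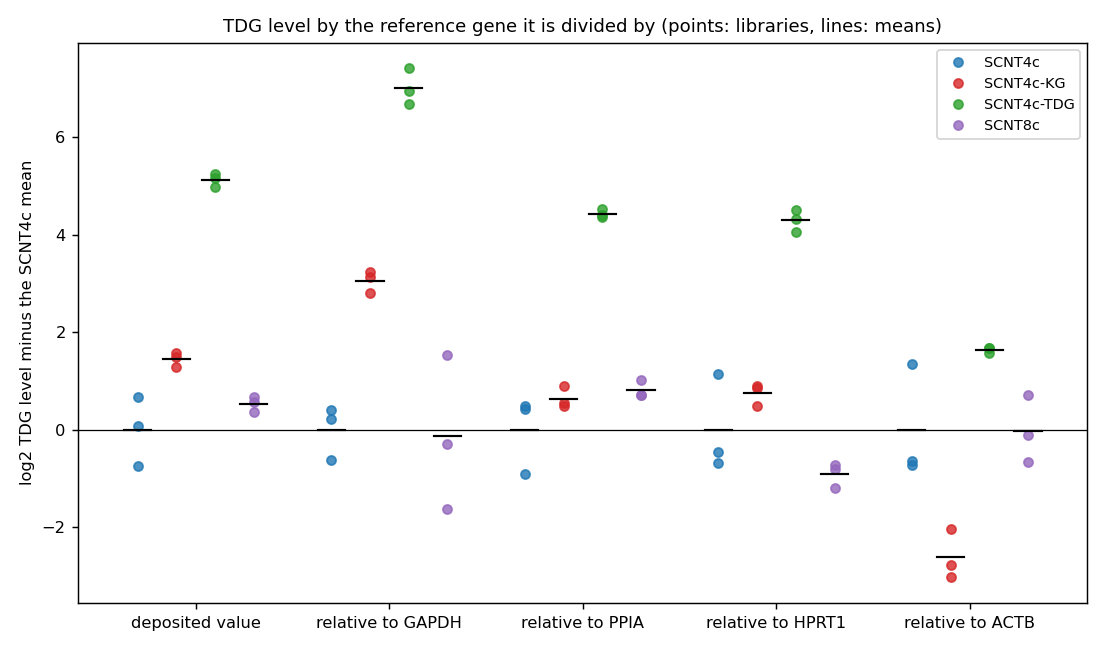
Log2 TDG level of each embryo library minus the SCNT4c mean (points, with group means as lines), for the deposited value and after division by GAPDH, PPIA, HPRT1 or ACTB. The SCNT4c-TDG group lies above SCNT4c with every divisor, between 1.64 and 7.02, whereas SCNT4c-KG moves from 3.06 with GAPDH to -2.61 with ACTB.

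Among 6962 known genes with a symbol and a mean of at least 100, the gene whose pattern over the 15 libraries lay nearest to PPIA was UBAP2, with a root mean square difference of 0.28 in centred log2 values. Nearest to HPRT1 was GPATCH11 (0.30), nearest to B2M-a ZFP36L1 (0.51), nearest to ACTB PBXIP1 (0.64) and nearest to B2M-b ZCCHC24 (0.80). PBXIP1 had means of 1776 in PFF, 2.52 in SCNT4c, 69.9 in SCNT4c-KG, 38.8 in SCNT4c-TDG and 2.16 in SCNT8c, so that it reached the mean of 100 through PFF and was near 0 in SCNT4c and SCNT8c. GPATCH11 had means of 664 in PFF, 1300 in SCNT4c, 2510 in SCNT4c-KG, 2418 in SCNT4c-TDG and 3110 in SCNT8c, so that PFF was lowest and SCNT8c highest, as for HPRT1.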

How the data were processed

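The RNA-seq libraries comprised 3 samples in each of 5 groups. Per the paper and the submitters' processing notes, Trimmomatic 0.39 removed poor reads, STAR 2.5.3a placed the rest on Sscrofa11.1 (unique hits only), StringTie 2.1.2 built the added transcripts and HTSeq did the counting. The deposited values are a normalized signal: each read count was divided by a number particular to its library, whose source is not given in the sources used here. Reads could be recovered, since 100% of the values in each library came out whole (tolerance 0.01 reads). Among 43535 entries, 241 repeats of a gene ID were dropped.

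The test was limma 3.58.1 (R 4.3.3, intensity trend) on log2(value + 1), for features whose mean in the fitted libraries reached 10, with the 12 embryo libraries in one fit and 6 libraries for each PFF comparison. Folds on this scale understate those of low features. A change needed a Benjamini-Hochberg adjusted p under 0.05 over all tested features and a fold above 2. An entry was within 2-fold where its 95% interval lay between -1 and 1. The test was checked on simulated reads. Alternatives included other pseudocounts (0.1 and 10), other filters (none, or a mean of 50), quantile normalization, scaling to the same total, edgeR 4.0.16 and DESeq2 1.42.0 on recovered reads, other samples in the fit, no fold limit, each library left out, sums with the assembled transcripts of a locus, and a replicate block, compared with the same libraries without it (added after seeing the data). The methods state that experiments were repeated, but the labels tie no library to its own culture or collection, so p-values measure the spread between these libraries, which may be technical. Copies were searched with BLAST+ 2.17.0.

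The members and all gene lists were chosen with earlier results of these data known. Named are the 8 genes, GAPDH, of each partner list the largest rise and fall against SCNT4c among the changed genes, of the other reference genes the 3 lowest and the 3 highest SDs, the nearest pattern of each tested entry and the 5 genes of lowest SD with a mean of at least 1000. ACTG1, EEF1A2, TDG, KDM4A, YWHAG, SDHA, THY1, VIM, COL1A2, ZP2, ZP3, KHDC3L, INHBA and the 2 LOC genes were added after their values were seen. PFN1, EEF1D, PDGFRB, LUM, OOEP, SLA-2, PSMB8 and PPIL2 were also added in this way. The promoter window of 1 further entry is not reported here.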

Additional observations from a re-analysis of the deposited data

How the results depend on the processing

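Every tested entry kept its direction in the alternatives except the following, and the cause was not tested beyond the shift of the median of all features. B2M-a in SCNT4c-TDG against SCNT4c (-0.12) turned to 0.19 with quantile normalization, 0.15 with the same total, 0.21 with edgeR, 0.24 with DESeq2 and 0.061 without SCNT4c-TDG replicate 3, with -0.41 to 0.061 over all libraries left out. Relative to the median of all features it was 0.14 in the main setting and 0.13 to 0.31 in the 4 scalings and tests. B2M-b in SCNT8c against SCNT4c (0.13) turned to -0.31 without SCNT4c library a, -0.48 without SCNT8c replicate 2 and -0.19 without SCNT8c replicate 3, with -0.48 to 1.07 over all libraries left out. PPIA in SCNT4c-TDG against SCNT4c-KG (-0.12) turned to 0.48, 0.24, 0.036 and 0.010 with quantile normalization, the same total, edgeR and DESeq2. PPIA in PFF against SCNT4c (0.28) turned to -0.034, -0.35, -0.50 (adjusted p = 0.044) and -0.54 (adjusted p = 0.032) with the same settings, and in PFF against SCNT8c (0.55) to -0.13 with the same total, -0.032 with edgeR and -0.079 with DESeq2. The median over all features in PFF against SCNT4c moved from -0.07 to -0.92, -0.96 and -1.01 with the same total, edgeR and DESeq2, and in PFF against SCNT8c from 0.15 to -0.74, -0.69 and -0.73. Relative to it, PPIA in PFF against SCNT8c was 0.41 in the main setting and 0.61, 0.66 and 0.65 in these 3.

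The number of entries changed in SCNT4c-KG against SCNT4c (1) was 2 with all features above 0 and 3 without the fold limit. In SCNT4c-TDG against SCNT4c (1) it was 3 with quantile normalization, 2 with the same total, 2 with edgeR, 3 with DESeq2, 2 with the 2 groups alone and 3 without the fold limit. In SCNT8c against SCNT4c (1) it was 0 with the 2 groups alone, a limma fit that called 0 of 18184 features, of which 3582 had an unadjusted p under 0.05. Over all features, this comparison had 1096 calls, with 842 by edgeR, 2733 by DESeq2 and a range of 0 to 6133 over the alternatives. In SCNT4c-TDG against SCNT8c (1) it was 2 with a pseudocount of 10, 3 with quantile normalization, 2 with the same total, 2 with edgeR, 3 with DESeq2, 2 without the fold limit and 2 with locus sums, and in PFF against SCNT4c (3) it was 7 with locus sums. Of the 4 added, GUSB, EEF1A1 and TBP reached the minimum mean through 1 group, so this larger count is in part set by the filter. Leaving out 1 library gave 1 to 1 changed entries in SCNT4c-KG against SCNT4c, 1 to 2 in SCNT4c-TDG against SCNT4c (2 without SCNT4c library a), 0 to 1 in SCNT8c against SCNT4c, 1 to 3 in SCNT4c-TDG against SCNT8c (2 without SCNT4c-TDG replicate 3, 3 without SCNT8c replicate 1) and 3 to 4 in PFF against SCNT4c. Calls over all features ranged from 1794 to 4989 around 3070 in SCNT4c-TDG against SCNT4c-KG, from 3379 to 6424 around 5335 in SCNT4c-KG against SCNT8c, and from 10020 to 18347 around 15083 in PFF against SCNT4c. ACTB kept its call in the treated groups against SCNT4c in every alternative, between 3.73 and 4.42 in SCNT4c-KG and between 3.15 and 3.84 in SCNT4c-TDG. PPIA ranked first by SD among the 5 entries except without SCNT4c library c, when HPRT1 did. By geNorm M, B2M-a, B2M-b and HPRT1 had ranks 1, 3 and 4 over 15 libraries, against ranks 3, 4 and 1 over 12. The order of HPRT1, PPIA and B2M-a also changed with 9 four-cell libraries and without SCNT4c-KG replicate 2, SCNT4c-KG replicate 3 or SCNT8c replicate 2.

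The labels give the same replicate numbers to the groups, but libraries with the same number did not deviate together (r between -0.061 and 0.195), so they share a number only. With the number as a replicate block, 0 entries changed in SCNT4c-TDG against SCNT4c-KG, 2 in SCNT4c-KG against SCNT8c, 1 in SCNT4c-TDG against SCNT8c and 4 in PFF against SCNT8c, as without it. No block was fitted with SCNT4c, whose numbers conflict. B2M-b had as few as 3 reads in an embryo library, and the TBP and EEF1A1 entries held 99 and 57 reads in all 15 libraries, so their values carry large counting error.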

Other observations

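Among 24 other genes in use as reference genes, 23 were listed and 17 had a mean of at least 10 in the embryos. Against SCNT4c, 10 of the 17 were higher and 3 lower in SCNT4c-KG, and 9 were higher and 3 lower in SCNT4c-TDG, beside 17.6% higher and 19.6% lower in SCNT4c-KG and 15.7% higher and 17.6% lower in SCNT4c-TDG of all features. Their medians were 1.77 and 1.14 on the log2 scale, against -0.30 and -0.26 over all features. LDHA is counted as higher in both but had a mean below 10 in SCNT4c and in SCNT8c. It passed the filter on low values, a mean of at least 10, through the treated groups, so no test is given for it. Its direction in these counts and medians was therefore set by the filter. EIF4A2, an RNA helicase of translation initiation, had the lowest SD over the 12 embryo libraries, at 0.44, and was the 1 gene of the 17 below PPIA. Its means were 18284 ± 573 in PFF, 15165 ± 6963 in SCNT4c, 16809 ± 2926 in SCNT4c-KG, 17494 ± 792 in SCNT4c-TDG and 24542 ± 5194 in SCNT8c (SD, n = 3), and it did not pass the test in SCNT4c-KG (log2 0.23, SE 0.30, adjusted p = 0.56) or in SCNT4c-TDG (log2 0.31, SE 0.30, adjusted p = 0.46). RPL7 (0.69) and RPL4 (0.89), of the large ribosomal subunit, came next.

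RPS18 had the highest SD, at 3.05, with means of 181 in SCNT4c and 411 in SCNT8c against 26705 in SCNT4c-KG and 4841 in SCNT4c-TDG. YWHAZ, a 14-3-3 protein (2.94), stood at 33.0 in SCNT4c, 1946 in SCNT4c-KG and 2454 in SCNT4c-TDG, and LDHA, lactate dehydrogenase A (2.73), at 5.27, 101.7 and 371. RPS18, YWHAZ and LDHA each share their locus with an assembled transcript, whereas EIF4A2, RPL7 and RPL4 do not. The part of these transcripts in the differences was not tested. Of the 23 listed genes, 5 stayed below 100 in every library. Of these, YWHAG and SDHA were listed at 0 throughout. All 5 share their locus with an assembled transcript, as do 16056 of the 28224 known genes. The part of such transcripts in the low values was not tested.

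Over all 15 libraries, the 5 known genes of lowest SD among 2906 with a mean of at least 1000 were FIP1L1 (0.23), ARID4B (0.24), CMPK1 (0.27), ARF1 (0.28) and TIPARP (0.29). FIP1L1, a factor of mRNA polyadenylation, lay between 2101 and 3340, and its highest library was 1.59 times the lowest. These genes were chosen for this spread, and how they hold in other samples was not tested.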
